A study of Homo sapiens with 6 samples.

Results

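The genes described here are long noncoding RNAs of a human liver cancer line: the host genes of small nucleolar RNAs (snoRNAs) and a few other abundant long noncoding RNAs. The hosts were every gene whose symbol is SNHG (small nucleolar RNA host gene) followed by a number, together with GAS5, DANCR, ZFAS1 and EPB41L4A-AS1. The others were MALAT1, NEAT1, CYTOR, NORAD and OIP5-AS1. By this rule 37 of the 58219 listed genes were members, 32 hosts and 5 others. The rule used names only and no measured value.

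RNA was sequenced from SNU-387, an established line from a pleomorphic hepatocellular carcinoma. In 3 libraries (shYES1) the cells stably expressed a short hairpin RNA against YES1, which encodes a kinase related to SRC. In 3 libraries (shNT) they stably expressed a non-target hairpin, and both groups share the line, the infection and the stranded poly(A) library kit. The labels state neither the number of hairpins nor whether replicates were separate cultures, so the spread behind each p-value may be technical only.

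Most snoRNAs of animals are cut out of introns of a host transcript. C/D snoRNAs guide 2′-O-methylation and H/ACA snoRNAs guide pseudouridylation, mostly of ribosomal RNA, and scaRNAs do the same for spliceosomal RNAs in Cajal bodies. The spliced host RNA that remains is often degraded by nonsense-mediated decay, and many hosts start with a 5′ terminal oligopyrimidine tract, as ribosomal protein mRNAs do. Of the other members, MALAT1 lies in nuclear speckles, NEAT1 is the scaffold of paraspeckles, and NORAD binds PUMILIO proteins in the cytoplasm. OIP5-AS1, known as Cyrano, carries a site for the microRNA miR-7, and CYTOR is a cytoplasmic RNA described in several cancers.

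The sequences below show what these RNAs carry. The opening set are snoRNAs inside 4 hosts that recur below, from GENCODE 29 on GRCh38. Capitals mark box C (TGATGA) and box D (CTGA) in the C/D snoRNAs, and the ACA box near the 3′ end of the H/ACA snoRNA.
SNORD50B in SNHG5, chr6:85677589-85677658, minus strand: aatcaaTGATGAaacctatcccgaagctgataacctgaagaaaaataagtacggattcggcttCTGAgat
SNORD1B in SNHG16, chr17:76561109-76561192, plus strand: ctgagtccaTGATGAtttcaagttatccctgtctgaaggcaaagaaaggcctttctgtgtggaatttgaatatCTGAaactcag
SNORD49A in SNHG29, chr17:16440036-16440106, plus strand: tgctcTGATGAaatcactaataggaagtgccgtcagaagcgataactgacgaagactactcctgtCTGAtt
SNORA61 in SNHG12, chr1:28579764-28579893, minus strand: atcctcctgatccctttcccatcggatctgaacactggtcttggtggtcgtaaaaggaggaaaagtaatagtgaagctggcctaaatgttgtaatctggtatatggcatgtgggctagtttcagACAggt

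A further set are start sites, from RefSeq promoter windows on GRCh38.p14, given as 10 bases before and 20 bases from the annotated start. Capitals mark a C followed by at least 4 pyrimidines that begins within 5 bases of the start, the letters of an oligopyrimidine tract.
SNHG5, chr6:85678714-85678743, minus strand: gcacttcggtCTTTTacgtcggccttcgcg
SNHG16, chr17:76557754-76557783, plus strand: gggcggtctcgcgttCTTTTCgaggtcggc
SNHG32, chr6:31834906-31834935, plus strand: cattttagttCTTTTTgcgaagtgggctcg
ZFAS1, chr20:49278632-49278661, plus strand: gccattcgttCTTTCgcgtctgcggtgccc
SNHG12, chr1:28581854-28581883, minus strand: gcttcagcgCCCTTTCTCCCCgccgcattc
SNHG29, chr17:16438977-16439006, plus strand: ccttttgtgaggattgggatattccgactc

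The remaining sequences belong to other members. NORAD holds the PUMILIO word TGTANATA, where N is any base, and capitals mark one such word per line. OIP5-AS1 holds the miR-7 site, in which capitals mark the bases that pair with miR-7. In the microRNA, capitals mark the seed, bases 2 to 8.
NORAD bases 761 to 768 with flanks, chr20:36050182-36050211, minus strand: tggaaggcctgTGTATATAatatgaaaaag
NORAD bases 2972 to 2979 with flanks, chr20:36047971-36048000, minus strand: caaccctactgTGTATATAgcggacaaact
NORAD bases 4599 to 4606 with flanks, chr20:36046344-36046373, minus strand: attagcctattTGTAAATAcctttgttata
OIP5-AS1, chr15:41300573-41300600, plus strand: gAACAACAAAATCACcaatGTCTTCCat
hsa-miR-7-5p, RefSeq: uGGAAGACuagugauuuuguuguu

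Libraries held 15975170, 11290889 and 18944148 gene reads in shYES1 and 12825919, 13651401 and 16388822 in shNT. YES1 averaged 44.1 ± 1.70 CPM in shYES1 and 179.5 ± 1.65 CPM in shNT (SD, n = 3 each), a log2 fold change of -2.02. CPM is a gene's read count scaled to a common library total, here after TMM scaling. Correlations of log CPM were 0.994 to 0.996 within groups and 0.969 to 0.970 between groups. Of 8 hepatocyte markers, TTR and HNF4A had no read, ALB, APOB, APOA1, FGB and AFP were at or near 0 in both groups, and SERPINA1 averaged 16.9 CPM in shYES1 and 19.2 CPM in shNT. Of 5 epithelial markers, the keratins KRT8 (721 CPM in shYES1 and 494 CPM in shNT) and KRT18 (357 CPM in shYES1 and 274 CPM in shNT) were higher, EPCAM (0.979 CPM in shYES1 and 1.43 CPM in shNT) was not called, and KRT19 and CDH1 were at or near 0. Both mesenchymal markers were lower, FN1 at a log2 fold change of -0.72 (15910 CPM in shYES1 and 26240 CPM in shNT) and VIM at -0.94 (23.2 CPM in shYES1 and 44.5 CPM in shNT). The 3 leukocyte markers summed to 37.0 to 39.8 CPM in shYES1 and 42.6 to 46.4 CPM in shNT, nearly all from CD14, with CD3E at 0. The 3 endothelial markers (PECAM1, CDH5 and VWF) summed to 23.0 to 23.4 CPM in shYES1 and 24.8 to 25.6 CPM in shNT, with PECAM1 called lower (log2 fold change -0.30), CDH5 not called and VWF called higher (1.44 CPM in shYES1 and 0.351 CPM in shNT). Erythroid HBA1 was at 0 and HBB near 0. The part of these markers in the results was not tested.

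Of the 26 host genes with enough reads to be tested, 14 were lower in shYES1, 1 was higher and 11 were not called. Calls rest on edgeR's quasi-likelihood test over all 14239 genes tested, with an adjusted p (Benjamini-Hochberg) under 0.05. Over those genes, 65.3% were called, 32.8% lower and 32.5% higher. The share of tested hosts called lower was 53.8%, and the share called higher was 3.85%. The median log2 fold change was -0.33 for tested hosts and -0.0047 for all genes tested, with hosts ranging from -0.67 to 0.36. The 3 libraries of shYES1 did not overlap those of shNT in 18 of the 26 hosts, and in 67.9% of all genes tested. In bulk RNA, fewer cells with a transcript and less of it per cell cannot be told apart.

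**Figure D1:**
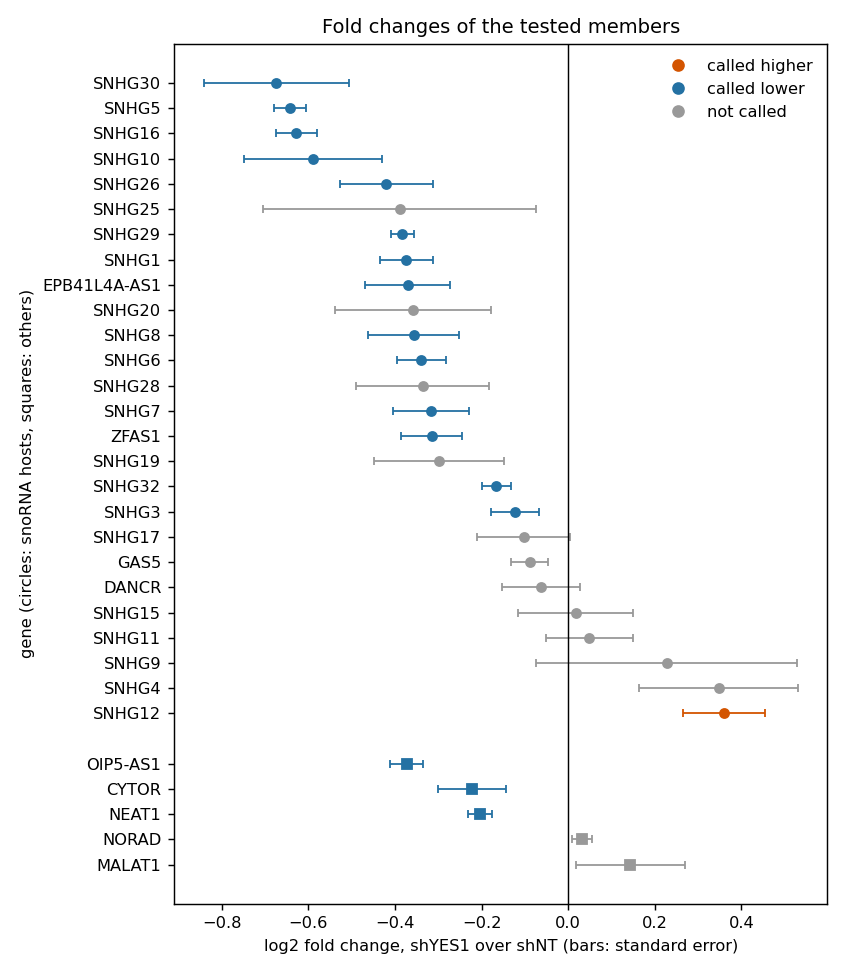
Log2 fold change of shYES1 over shNT for the 26 tested hosts (circles) and the 5 other members (squares), with bars for the standard error and colour for the call. SNHG30, SNHG5 and SNHG16 have the lowest host values, and SNHG12 is the 1 host called higher.

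The C/D hosts held the most abundant host transcripts. SNHG29 (chr17:16438822-16478678), which carries SNORD49A, SNORD49B and SNORD65, had 322.1, 307.8 and 321.0 CPM in shYES1 and 401.8, 420.7 and 419.3 CPM in shNT. No shYES1 library reached the lowest shNT library. Its log2 fold change was -0.38 ± 0.027 (SE; adjusted p = 2.05e-17, edgeR), and it alone made up 39.1% of the summed host CPM in shYES1 and 40.5% in shNT.

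SNHG5 (chr6:85660950-85678748) carries SNORD50A and SNORD50B. It had 71.4, 73.6 and 75.8 CPM in shYES1 and 113.5, 115.9 and 115.6 CPM in shNT, groups far apart relative to their spread. The log2 fold change was -0.64 ± 0.036 (adjusted p = 1.18e-20, edgeR), which is 1.56-fold lower in shYES1. SNHG16 (chr17:76557766-76565348), the host of SNORD1A, SNORD1B and SNORD1C, had 37.1, 36.6 and 36.1 CPM in shYES1 and 57.1, 55.2 and 57.2 CPM in shNT. Again no library of one group reached the other, and the log2 fold change was -0.63 (adjusted p = 5.03e-16, edgeR). On unstranded counts its log2 fold change was -0.40, which remained called.

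Other C/D hosts were lower in shYES1 as well. SNHG32, the host of SNORD48 and SNORD52, had 113.0, 109.6 and 114.6 CPM in shYES1 and 124.0, 127.3 and 127.7 CPM in shNT, a log2 fold change of -0.17 (adjusted p = 2.43e-05, edgeR). SNHG1, which carries 8 C/D snoRNAs, had 22.8, 22.4 and 23.6 CPM in shYES1 and 30.9, 29.4 and 29.5 CPM in shNT (log2 fold change -0.37, adjusted p = 5.92e-07, edgeR). Both pairs of groups were separate, and the call of SNHG32 was lost when libraries were scaled by size alone (adjusted p = 0.0638). SNHG6, the host of SNORD87, had 33.9, 32.0 and 29.7 CPM in shYES1 and 41.2, 38.4 and 40.8 CPM in shNT (log2 fold change -0.34). ZFAS1, an antisense neighbour of ZNFX1 that carries SNORD12 and its relatives, had 19.6, 17.4 and 17.5 CPM in shYES1 and 22.1, 22.9 and 22.8 CPM in shNT (log2 fold change -0.32). The groups of SNHG6 and of ZFAS1 did not overlap either.

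**Figure D2:**
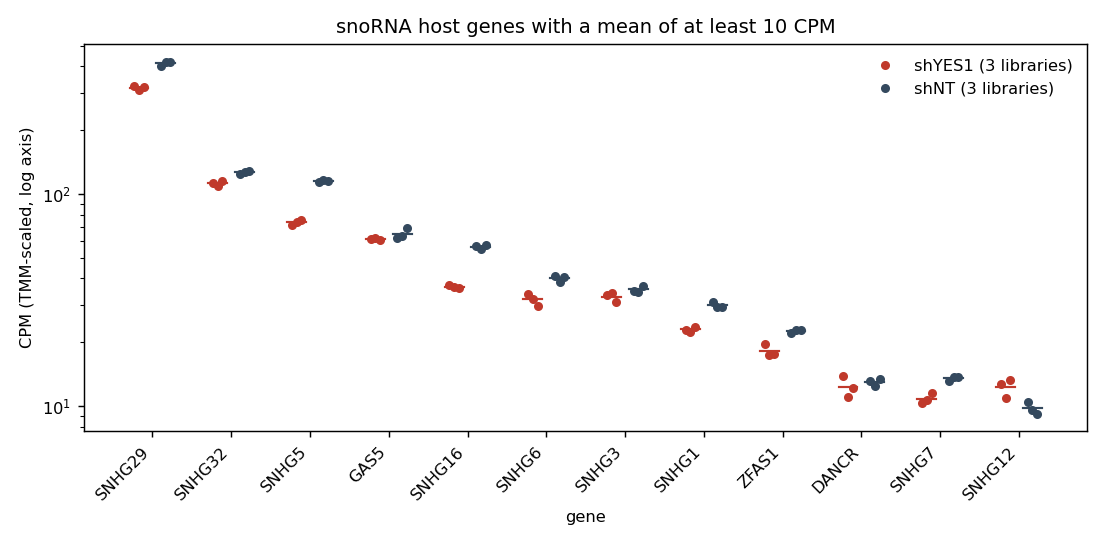
CPM of the 12 hosts with a mean of at least 10 CPM, on a log axis, for each shYES1 library (red) and each shNT library (dark), with a line at each group mean. SNHG29, SNHG5 and SNHG16 are separated by group, whereas DANCR overlaps.

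GAS5, SNHG3 and DANCR differed little between the groups. GAS5 (growth arrest specific 5), whose introns hold a row of C/D snoRNAs, had 61.3, 62.3 and 60.4 CPM in shYES1 and 62.2, 63.6 and 68.8 CPM in shNT. The groups overlapped, and the log2 fold change of -0.09 was not called (adjusted p = 0.0683, edgeR). Without shNT replicate 1 it was called lower (log2 fold change -0.12, adjusted p = 0.0215, edgeR), and without shNT replicate 3 the log2 fold change was -0.04. It was called lower at -0.19 with scaling factors from genes whose 3′ UTR lacks the word CCTTTC (adjusted p = 1.75e-04, edgeR), and with scaling by library size its sign turned. SNHG3, the host of SNORA73A and SNORA73B, had 33.4, 34.0 and 31.1 CPM in shYES1 and 35.1, 34.7 and 36.8 CPM in shNT. Its call, at a log2 fold change of -0.12 (adjusted p = 0.0473, edgeR), was lost in 10 of 16 alternatives, among them leaving out shYES1 replicate 3, shNT replicate 1 or shNT replicate 3 (adjusted p = 0.284, 0.0516 and 0.19, edgeR). DANCR, the host of SNORA26 and an RNA known to hold back differentiation of epidermal progenitors, had 13.8, 11.03 and 12.2 CPM in shYES1 and 13.1, 12.4 and 13.4 CPM in shNT. Its groups overlapped and it was not called (log2 fold change -0.06, or -0.15 without shYES1 replicate 1 and -0.0063 without shYES1 replicate 2). SNHG7, the host of SNORA17A and SNORA17B, had 10.3, 10.7 and 11.5 CPM in shYES1 and 13.2, 13.8 and 13.8 CPM in shNT, and was called lower (log2 fold change -0.32, adjusted p = 0.0015, edgeR).

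SNHG12 (chr1:28578538-28583132) was the host called higher. It carries SNORD99 together with the H/ACA snoRNAs SNORA16A, SNORA44 and SNORA61, and had 12.7, 10.95 and 13.2 CPM in shYES1 and 10.5, 9.61 and 9.19 CPM in shNT. The groups did not overlap, with the lowest shYES1 library close to the highest shNT library, and the log2 fold change was 0.36 ± 0.095 (adjusted p = 9.47e-04, edgeR). A test against a change of 1.2-fold did not call it (adjusted p = 0.131, edgeR).

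The 14 tested hosts below 10 CPM included 5 called lower. EPB41L4A-AS1, the host of SNORA13, averaged 8.74 CPM in shYES1 and 11.2 CPM in shNT (log2 fold change -0.37). SNHG8, SNHG26, SNHG10 and SNHG30 had log2 fold changes of -0.36, -0.42, -0.59 and -0.67. SNHG10 carries SCARNA13, a guide for spliceosomal RNA, and averaged 3.22 CPM in shYES1 and 4.78 CPM in shNT. The 9 that were not called included SNHG11, SNHG15, SNHG4 and SNHG9, at log2 fold changes of 0.05, 0.02, 0.35 and 0.23. SNHG4 became called higher with scaling by library size alone (adjusted p = 0.0301, edgeR). The rest were SNHG17, SNHG19, SNHG28, SNHG20 and SNHG25, at -0.10, -0.30, -0.34, -0.36 and -0.39. Of these, SNHG19 and SNHG28 became called lower when 1 library was left out, at adjusted p = 0.0465 without shNT replicate 1 and 0.0388 without shYES1 replicate 2 (edgeR), and SNHG20 likewise at 0.0369 without shYES1 replicate 2.

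Low counts left 6 hosts untested. SNHG21 had 20 reads over the shYES1 libraries and 29 over the shNT libraries, and SNHG14 had 6 over shYES1 and 3 over shNT. SNHG31 had 9 in shYES1 and 8 in shNT, and SNHG22 had 9 in shYES1 and 5 in shNT. SNHG18 had none in shYES1 and 3 in shNT, and SNHG27 had none in any library, where a count of 0 allows up to 3 reads, or 0.158 to 0.266 CPM per library. These limits cover counting error only. SNHG14, the large host of the imprinted Prader-Willi region with 84 annotated snoRNA genes, had 98.6% of its stranded reads on the strand of UBE3A, which it overlaps in antisense.

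The counts were set beside those of all genes of like abundance. Among genes of 10 to 50 CPM, 6 of 8 hosts were called lower and 1 higher. Of all genes at that level, 35.0% were called lower and 37.1% higher. At 50 CPM or more, 3 of 4 hosts were called lower and 0 higher, beside 39.1% and 44.65% of all genes. Between 5 and 10 CPM, 3 of 6 hosts were lower and 0 higher, beside 33.5% and 23.6% of all genes. Under 5 CPM, 2 of 8 hosts were lower and 0 higher, beside 22.2% and 14.7%. The host median was between -0.35 and -0.23 in all 4 ranges, while that of all genes was between -0.08 and 0.03.

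Grouped by the snoRNAs they carry, 9 of 10 tested hosts of C/D snoRNAs alone were called lower (median log2 fold change -0.38). Of 10 tested hosts of H/ACA snoRNAs alone, 4 were called lower and none higher (median -0.08). Over all genes tested, 32.8% were called lower and 32.5% higher. The grouping by snoRNA kind was made after the values were seen and has no test. The C/D hosts were also the more abundant, with a median level of 31.2 CPM against 9.17 CPM for the H/ACA hosts, and the part of that difference in the counts was not tested. Among hosts with a mean of at least 10 CPM, 7 of 7 C/D hosts and 2 of 3 H/ACA hosts were called lower. GAS5, SNHG12 and SNHG25 carry both kinds by annotation, with the snoRNAs of GAS5 taken from RefSeq. These 3 are in neither group, and 1 was called higher and 0 lower (median -0.09). In GAS5 the only H/ACA name is SNORA103, so the C/D counts depend on this sorting.

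Mature snoRNAs carry no poly(A) tail, and poly(A) libraries are not made to capture them. Of 144 snoRNA and scaRNA genes annotated inside hosts, 21 had any read, and together they had 369 reads over the 6 libraries, beside 81109 reads of the hosts. These counts do not measure snoRNA levels. The 45 genes that lie wholly inside annotated host exons had 0 reads. Reads that overlap both a host and such a gene are counted as ambiguous. Wherever the counting used the same exons, such a gene could receive no read, so its count of 0 carries no information. Of the 144 genes, 84 lie in SNHG14, which itself had few reads. Of the 26 genes outside both sets, 20 had reads, 368 in all.

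A pyrimidine run near the annotated start, as shown above, was present in 11 of the 22 tested hosts with a RefSeq window. It was present in 22.7% of all tested genes with a window and in 77.3% of ribosomal protein genes. Hosts with the run counted 6 lower and 1 higher of 11 (median log2 fold change -0.30), and hosts without it 7 lower of 11 (median -0.37). The match depends on the annotated start. Among the windows printed above, that start lay 1259 bases from the GENCODE start in SNHG12, 464 in ZFAS1, 308 in SNHG32, 165 in SNHG29, 15 in SNHG5 and 2 in SNHG16, and in GAS5 it lay 163 bases away.

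Among the other long noncoding RNAs, 3 of 5 were lower in shYES1, none was higher and 2 were not called. That is 60% called, and of all genes tested 65.3% were called, 32.8% lower and 32.5% higher. The median log2 fold change of the 5 was -0.20. MALAT1, the most abundant member, had 1600, 1719 and 1744 CPM in shYES1 and 1763, 1307 and 1515 CPM in shNT. The shNT libraries spread more widely and overlapped shYES1, and the log2 fold change of 0.14 ± 0.13 was not called (adjusted p = 0.377, edgeR). It was 0.26 without shNT replicate 1 and 0.04 without shNT replicate 2, and 0.24 with library size alone and 0.04 with factors from genes lacking the 3′ UTR word CCTTTC, not called in any of these. NORAD had 769.9, 776.8 and 768.7 CPM in shYES1 and 771.6, 750.9 and 742.2 CPM in shNT, a log2 fold change of 0.03 that was not called (adjusted p = 0.245, edgeR). Its direction turned with the scaling: 0.13 and called higher with library size alone (adjusted p = 9.18e-06, edgeR), -0.07 and called lower with the word-free factors (adjusted p = 0.0133, edgeR).

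NEAT1, OIP5-AS1 and CYTOR were lower in shYES1. NEAT1 (chr11:65422774-65445540) had 463.4, 467.8 and 476.0 CPM in shYES1 and 573.5, 523.1 and 526.0 CPM in shNT. The groups were separate, with a log2 fold change of -0.20 ± 0.028 (adjusted p = 1.04e-08, edgeR). Its short and long isoforms share the start of the gene and were counted together, so the call cannot be read for the long isoform alone. How far the poly(A) libraries capture each isoform was not tested. OIP5-AS1 (chr15:41283990-41309737) had 74.1, 81.1 and 78.0 CPM in shYES1 and 99.7, 101.1 and 100.3 CPM in shNT, which were also separate (log2 fold change -0.37 ± 0.038, adjusted p = 3.59e-12, edgeR). CYTOR had 13.8, 14.5 and 14.4 CPM in shYES1 and 17.4, 16.0 and 16.4 CPM in shNT. Its call, at a log2 fold change of -0.22 (adjusted p = 0.0119, edgeR), was lost in 5 of 16 alternatives, including DESeq2 (adjusted p = 0.0805) and leaving out shNT replicate 1 (adjusted p = 0.0543, edgeR).

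**Figure D3:**
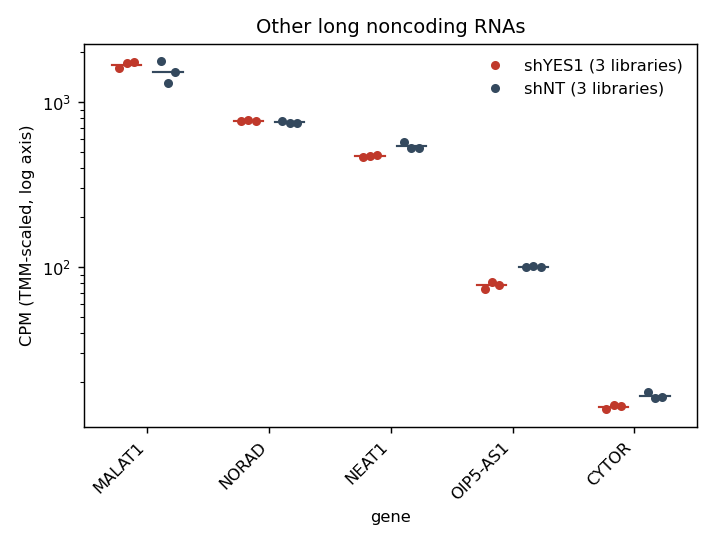
CPM of the 5 other members on a log axis, for each shYES1 library (red) and each shNT library (dark), with a line at each group mean. NEAT1, OIP5-AS1 and CYTOR are lower in every shYES1 library, while MALAT1 and NORAD overlap.

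Per kilobase of exon, MALAT1 was the highest member, at 191 CPM in shYES1 and 173 CPM in shNT. NORAD followed at 145 CPM per kilobase in shYES1 and 141 CPM per kilobase in shNT. SNHG29 came next, at 84.3 CPM per kilobase in shYES1 and 110 CPM per kilobase in shNT. NEAT1, whose annotated exons span a much longer gene, had 20.6 CPM per kilobase in shYES1 and 23.8 CPM per kilobase in shNT. The exon length is the union over all annotated transcripts, so genes with many unused exons read low on this scale. How evenly the poly(A) libraries capture the different members and their isoforms was not tested.

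Words and sites were counted in the sequences of the other members. NORAD held 15 TGTANATA words in 5339 bases, or 2.81 per kilobase, counted on the transcript strand. Of 13158 tested genes with a longest transcript of at least 1000 bases, 3 were as dense or denser, NORAD included, and 31.5% of all tested genes had at least 1 word. NEAT1 held 6 words and OIP5-AS1 held 1, while MALAT1, CYTOR, GAS5, SNHG29 and SNHG5 held none in their longest transcripts. The miR-7 site of OIP5-AS1 lies at bases 2868 to 2895 of a transcript of 8829 bases and pairs through the 7 seed bases and an upstream block of 14 bases. That transcript has 3 matches to the 7 seed bases in all.

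The 2 classes were compared by their summed CPM. Hosts summed to 819.1, 797.7 and 815.9 CPM in shYES1 and 1005, 1023 and 1039 CPM in shNT, so the shYES1 mean was 20.7% below that of shNT and the libraries did not overlap. The others summed to 2921, 3060 and 3081 CPM in shYES1 and 3225, 2698 and 2900 CPM in shNT, which overlapped. The host sum was 28.0%, 26.1% and 26.5% of the other sum in shYES1 and 31.2%, 37.9% and 35.8% in shNT. SNHG29, SNHG32, SNHG5, GAS5 and SNHG16 together made up 74.1% of the host sum in shYES1 and 76.0% in shNT. MALAT1 made up 55.9% of the other sum in shYES1 and 51.8% in shNT, so that sum largely follows 1 gene. No p-value was computed for these sums or for the difference between the classes.

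**Figure D4:**
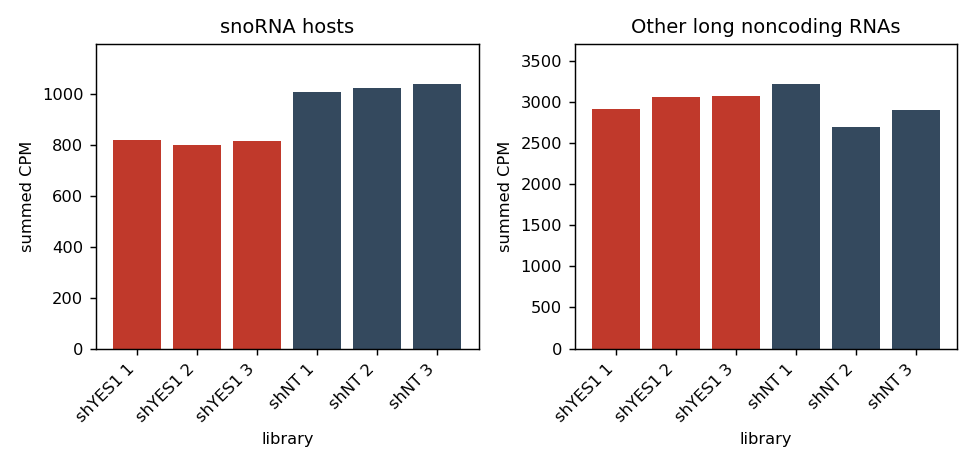
Summed CPM of the hosts (left) and of the other members (right) in each library, with bars from 0, shYES1 in red and shNT dark. The host sums are 797.7 to 819.1 CPM in shYES1 and 1005 to 1039 CPM in shNT, whereas the sums of the others overlap.

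Protein-coding hosts of snoRNAs gave a point of comparison. Of 28 tested ribosomal protein genes with snoRNAs in their introns, 27 were lower in shYES1 and none higher (median log2 fold change -0.24). Of all 82 tested ribosomal protein genes, with or without snoRNAs, 62 were lower (75.6%) and 2 higher (median -0.19). RPL39, RPS3 and RPL10, proteins of the ribosome, were lower by log2 fold changes of -0.98, -0.47 and -0.42. Of 189 other protein-coding snoRNA hosts, 70 were lower (37.0%) and 67 higher (35.45%), with a median of 0.01. SNHG32, annotated as protein coding, was counted with the members and not in this group. Among them were EIF3A, a translation initiation factor, at -1.40 and STIM1, a calcium sensor of the endoplasmic reticulum, at 0.76. Of 1302 tested long noncoding RNAs that are not members, 328 were lower (25.2%) and 154 higher (11.8%), with a median of -0.14. Over all genes tested, 32.8% were lower and 32.5% higher. The difference of the SNHG hosts from these groups was not tested.

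**Figure D5:**
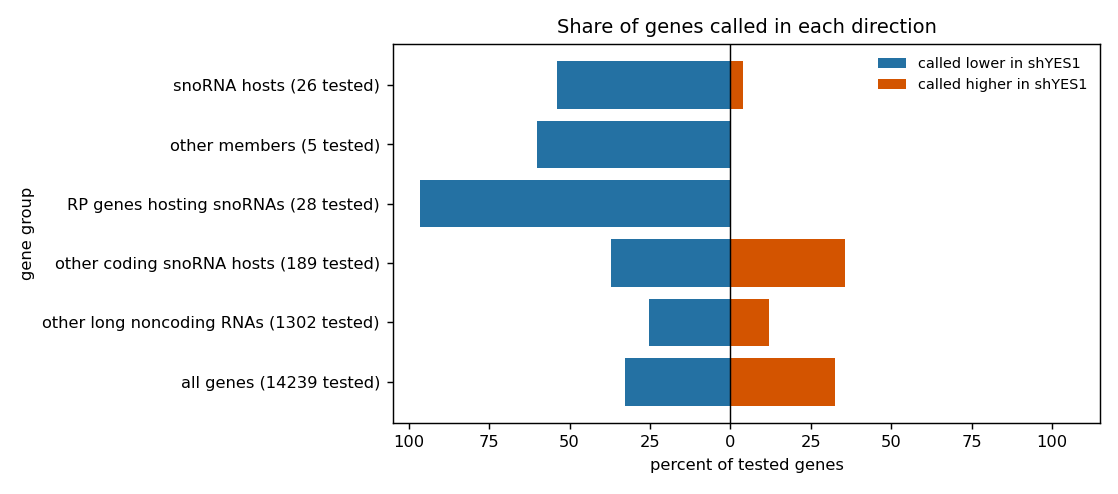
Percent of tested genes called lower (to the left of 0) and higher (to the right) in shYES1, for the hosts, the other members, 3 comparison groups and all genes. The hosts lie at 53.8% lower and 3.85% higher, and ribosomal protein genes with snoRNAs at 96.4% lower. Of all tested ribosomal protein genes, which are not drawn, 75.6% were called lower.

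Proteins that act with these RNAs were read beside all genes tested, of which 32.8% were lower and 32.5% higher. Of 18 snoRNP proteins and assembly factors, 7 were lower (38.9%) and 4 higher (22.2%), and of 14 nonsense-mediated decay factors 6 were lower (42.9%) and 5 higher (35.7%), shares near that background. NHP2, a core H/ACA protein, averaged 24.8 ± 0.683 CPM in shYES1 and 41.7 ± 0.594 CPM in shNT (SD, n = 3 each; log2 fold change -0.74). ZNHIT6, a C/D assembly factor, and SHQ1, an H/ACA assembly factor, had log2 fold changes of -0.56 and -0.46. RUVBL1, an ATPase of the assembly complex, had 0.42, and NOP10, another core H/ACA protein, and NUFIP1, an assembly factor, each had 0.23. The decay factors with the lowest values were UPF3B at -0.68, SMG6, the endonuclease of the pathway, at -0.48 and UPF3A at -0.47. The kinase SMG1 and its partner SMG9 were higher, at 0.25 and 0.31, as was UPF2 at 0.20.

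For the other RNAs, 8 of 12 paraspeckle proteins (66.7%) were lower in shYES1 and none higher. NONO, a core paraspeckle protein that binds NEAT1, averaged 260.6 ± 6.79 CPM in shYES1 and 407.3 ± 15.1 CPM in shNT (SD, n = 3 each; log2 fold change -0.64). NUDT21 and CPSF7, subunits of the complex that sets the choice of poly(A) site, were at -0.90 and -0.47. Among listed NORAD partners, TOP1 (topoisomerase) at 0.45 and PUM2 at 0.11 were higher, and RBMX at -0.31 and KHDRBS1 at -0.11 were lower. Of 6 speckle genes and MALAT1 binders, METTL16, which binds the MALAT1 triple helix, was lowest at -1.12, SRSF1, SRSF2, SRSF3 and SRRM2 were lower by smaller amounts, and SON was higher at 0.26.

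Genes beside the members were read from the annotation. Of 15 pairs of a member with a gene that overlaps it on the other strand or starts head to head within 1000 bases, both tested, 6 had both genes called, 3 in the same direction and 3 in opposite directions. The share called over all genes tested was 65.3%. SLC3A2, which starts 188 bases from SNHG1, was lower (log2 fold change -0.29), as was OIP5 beside OIP5-AS1 (-0.78). TRNAU1AP beside SNHG12 was called higher (0.21, adjusted p = 0.026, edgeR), though its groups overlapped. The opposite pairs included SNHG10 with GLRX5 (0.40) and ZFAS1 with ZNFX1 (0.27). RPS2 (-0.26), SIL1 (0.41) and TRAF7 (-0.20) were called beside SNHG9, SNHG4 and SNHG19, which were not. Beside untested hosts, BARD1 (-1.34) and UBE3A (-0.36) were lower and ACAA2 (0.45) was higher.

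Some values are uncertain because genes share exons or sequence, and reads that fit several genes are left out. All exon bases of SNHG28 are also exons of VSIG8 or another gene on the same strand, as are 72.9% in SNHG21, 48.6% in SNHG25, 23.1% in SNHG9, 20.9% in ZFAS1, 15.3% in SNHG1, 14.2% in SNHG8, 14.01% in SNHG4, 10.96% in SNHG3 and 10.7% in SNHG20, the members above 10%. Of the 50-base words of NORAD, 35.3% occur in another gene, mostly OVCH1-AS1, and 24.1% of those of CYTOR occur in another gene, mostly MIR4435-2HG.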

How the data were processed

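Poly(A) RNA of 6 libraries, 3 shYES1 and 3 shNT, was sequenced from stranded libraries. The deposited files hold raw counts of reads per gene, which the authors made with CASAVA 1.8.2, Trimmomatic 0.35 and STAR 2.5.1b on GRCh38, per the submitters' processing notes. For the annotation release the sources used here give no name. The reverse-strand column was used, since 93.5% to 94.0% of stranded gene reads fell on it. The 4 entries that name no gene held 19.8% to 20.3% of reads and were left out. Symbols were matched for 57437 of 58219 identifiers, and coordinates for 57881 came from GENCODE 29. Those entries cover unmapped, multimapping, unassigned and ambiguous reads, so repeated or overlapping genes can lose reads.

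The test was the robust quasi-likelihood fit of edgeR 4.0.16 (R 4.3.3) of shYES1 against shNT, with TMM factors, over the 14239 genes that passed filterByExpr (10 reads, 15 in total). Standard errors are approximate, being each log2 fold change over the root of its F statistic. The common biological coefficient of variation was 2.10%. On simulated counts (14026 genes, shYES1 against shNT), edgeR recovered 55.3%, 85.7%, 98.0% and 100% of genes changed by 0.25, 0.5, 1 and 2 on the log2 scale, with 2.94% false calls. The simulation gave every gene the common variation and changed only a small share of genes. In the data the spread differs by gene and 65.3% of genes were called, so these rates need not hold for them. The standard errors come from that fit and include the spread between libraries. Limits given for genes without reads cover counting error only. As far as the sources say, reads are not deduplicated molecules.

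Members with a mean of at least 10 CPM are given for every library, the other members by values or ranges. From each related list up to 3 called rises and 3 called falls with a mean of at least 5 CPM are named, largest first, and neighbours within 1000 bases head to head or overlapping on the other strand. The members and lists were chosen with earlier results of these data known. The alternatives tried were scaling by RLE or by library size, DESeq2 1.42.0, voom of limma 3.58.1, other low-count filters, unstranded counts, a test against 1.2-fold, the sample number as a block, leaving out each library, and, added later, TMM factors from genes whose 3′ UTR lacks the word CCTTTC. Sequences are from GENCODE 29 transcripts and RefSeq tables on GRCh38.p14, where 32 of 37 members had a start window. Some genes that these rules would name are not reported here.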

Additional observations from a re-analysis of the deposited data

How the results depend on the processing

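Of 18 called members, 7 kept their call under all 16 alternatives (SNHG29, SNHG5, SNHG16, SNHG1, SNHG10, SNHG30 and OIP5-AS1), and every called member kept its direction. Over all genes the median became 0.092 on the log2 scale with library size alone and -0.10 with factors from genes lacking the 3′ UTR word, an alternative chosen with earlier results of these data known. All genes then split into 5799 higher and 3762 lower, and 3491 higher and 5771 lower, beside 4623 higher and 4676 lower. With library size alone 2 hosts and 1 other member were called higher, the host median was -0.23 and that of the others -0.11, host sums averaged 838.6 CPM in shYES1 and 988.6 CPM in shNT, the others averaged 3124 CPM in shYES1, and GAS5 (0.0078) and DANCR (0.034) turned positive. With the word-free factors the medians were -0.43 for hosts and -0.30 for others, and SNHG11 (-0.050), SNHG15 (-0.081) and NORAD (-0.068) turned negative. Against 1.2-fold, 6 hosts were lower and 0 higher, 1 other member was lower, and 2324 genes were higher and 2861 lower. The host median was -0.30 without a count filter and -0.31 on unstranded counts, where host sums averaged 659.2 CPM in shYES1 and 814.7 CPM in shNT and the others 3148 CPM in shYES1. Leaving out 1 library moved the host median between -0.33 and -0.28 and the median of the others between -0.23 and -0.16. SNHG15, not called, ranged from -0.084 to 0.14 and turned negative without shYES1 replicate 2 (-0.021), shYES1 replicate 3 (-0.0030) or shNT replicate 2 (-0.084). The causes were not tested.

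Same-numbered libraries shared little (correlations of deviations 0.0116, 0.0252 and 0.0122). These values cannot tell whether same-numbered samples were handled together, and the labels do not say. With the replicate number as a block, 13 hosts were lower and 1 higher and 3 others lower, and SNHG3 lost its call (log2 fold change -0.12, adjusted p = 0.0553, edgeR).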
